A study of Mus musculus with 4 samples.

Results

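The genes described here are 35 mouse genes known for induction by type I interferon, together with the transcription factors that carry that response. They were taken by symbol from a written list, which was chosen with earlier results of these data known. All 35 were found among the 39179 genes of the count files. RNA from mouse skin on the C57BL/6 background was measured by sequencing in 4 libraries. Of these, 2 came from wild-type (WT) skin and 2 from lesional skin of mice without the ubiquitin ligase Itch. Every sample, also those from WT mice, carries the phenotype label inflammation, and the labels state no age, sex, treatment or number of animals. They do not say whether libraries of a group came from separate mice, so a p-value here reflects the scatter among these libraries, which may be technical.

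Type I interferons signal through the receptor Ifnar1 and Ifnar2 to the kinases Jak1 and Tyk2, which activate the transcription factor Stat2. A complex that holds Stat2 and Irf9 binds the interferon-stimulated response element (ISRE) and switches on antiviral genes. Irf7 amplifies the response, and Usp18 and Socs1 dampen it. In skin, keratinocytes, fibroblasts, dendritic cells and infiltrating myeloid cells can all express such genes.

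Several members carry the response element close to their transcription start, and 6 stretches are shown because they hold it upstream of genes whose levels are given below. The motif searched was GAAA, any 2 bases and GAAA again, on both strands, in the window from 250 bases before to 50 bases after the start. Promoter sequences were RefSeq's for GRCm38.p6, which held 25 of the 35 members. A match was present for 12 of those 25 genes (48.0%), against 3.99% of all 27025 genes in the promoter table. The gamma-activated site TTCNNNGAA, a palindrome, was present for 6 of 25 members (24.0%) and for 9.55% of all genes. Each stretch below runs 5′ to 3′ on the gene's strand from 160 to 41 bases before the start, with motif matches in capitals. Capitals beginning with TTTC are matches on the opposite strand.
Isg15, chr4:156200859-156200978, minus strand: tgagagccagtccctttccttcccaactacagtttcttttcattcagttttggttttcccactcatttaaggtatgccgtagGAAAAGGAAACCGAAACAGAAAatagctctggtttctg
Bst2, chr8:71537513-71537632, minus strand: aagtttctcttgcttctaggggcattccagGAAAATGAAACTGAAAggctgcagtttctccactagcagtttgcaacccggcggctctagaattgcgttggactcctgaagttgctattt
Oas3, chr5:120777700-120777819, minus strand: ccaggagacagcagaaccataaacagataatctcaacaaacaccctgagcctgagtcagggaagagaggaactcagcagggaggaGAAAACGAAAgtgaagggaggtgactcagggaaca
Ifit1, chr19:34640729-34640848, plus strand: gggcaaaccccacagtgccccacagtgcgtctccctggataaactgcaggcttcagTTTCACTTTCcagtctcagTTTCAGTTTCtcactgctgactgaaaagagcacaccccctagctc
Ifit3, chr19:34583369-34583488, plus strand: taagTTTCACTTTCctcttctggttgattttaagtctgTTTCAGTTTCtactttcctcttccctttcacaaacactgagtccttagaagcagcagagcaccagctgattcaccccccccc
Rsad2, chr12:26456493-26456612, minus strand: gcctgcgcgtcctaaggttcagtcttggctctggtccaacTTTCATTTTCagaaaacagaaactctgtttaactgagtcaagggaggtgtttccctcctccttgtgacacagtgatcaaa

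In Isg15, 3 matches overlap in a run that starts 78 bases before the start, and in Bst2 a pair of matches overlaps. A gamma-activated site match overlaps the ISRE match starting 130 bases before the start in Bst2 and the match 19 bases after it in Ifitm3. The other ISRE match of either gene is not overlapped. Ifit1 and Ifit3 each hold 2 separate matches on the opposite strand. Of the 12 members with a match, 10 had both knockout libraries above both WT libraries, as did 23 of all 35 members and 31.2% of tested genes. The median log2 fold change was 1.24 for those 12 and 0.85 for all 35 members, and that difference was not tested. The others were Ifit3 and Ifih1, whose groups overlapped. A match is a description of the letters in this window and not a measured binding site.

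**Figure D1:**
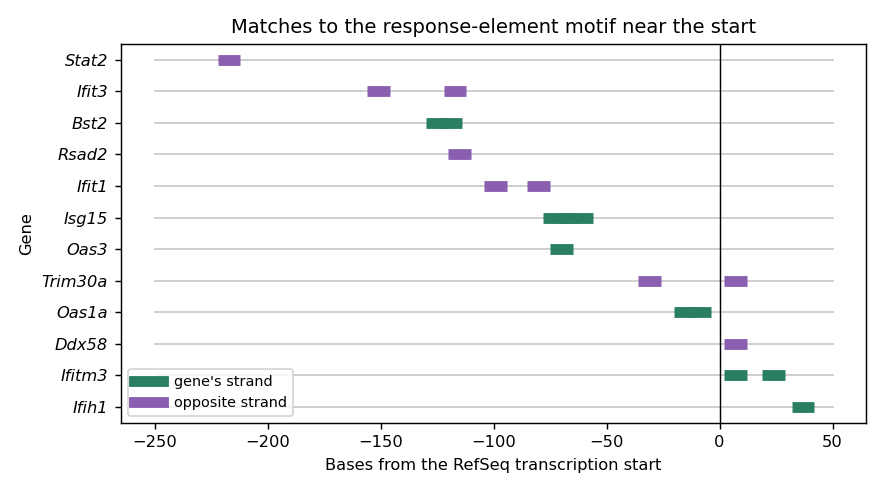
Position of each ISRE motif match (bars 10 bases long, coloured by strand) relative to the RefSeq transcription start (for Trim30a, to each of its starts), in bases, for the 12 members that hold one between 250 bases before and 50 bases after it. The matches of Ifit3, Bst2, Rsad2, Ifit1, Isg15 and Oas3 lie between 156 and 66 bases before the start, counted at their first base.

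Libraries held 15144957 to 16008351 gene reads. Itch itself stood at 96.7 and 103 CPM (counts-per-million, reads of a gene scaled to library size by the TMM method) in WT and 11.7 and 11.7 CPM in the knockouts. Xist, which silences an X chromosome in females, was at 1055 and 631 CPM in WT against 0.947 and 0.892 CPM in the knockouts, and the Y-linked Eif2s3y at 0.133 and 0.126 against 69.5 and 73.7 CPM. Genotype and sex therefore cannot be told apart in these libraries. Of the members, 0 lie on X or Y, which does not separate sex from genotype for them. WT replicate 1 stood apart from the other libraries, with a summed level of 8 skeletal muscle markers of 14049 CPM against 925 to 2391 CPM and of 7 hair markers of 43.3 CPM against 5597 to 8497 CPM. Keratinocyte markers, which define the labelled tissue, summed to 15830 to 19035 CPM in the 4 libraries, but single markers differed. Of 8, both knockouts lay below both WT libraries for 5 and above for 1, against 30.0% and 31.2% of all tested genes. Dsg1a stood at 1253 and 956 CPM in WT, against 539 and 545 CPM in the knockouts, and Krt14 at 1617 and 1888 against 2979 and 3475 CPM. In bulk skin, fewer cells of a type and less RNA per cell cannot be told apart.

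Most of the interferon-stimulated genes were higher in the knockout skin, and none passed the test over all genes. The level in each knockout library exceeded that in each WT library for 23 of 35 members (65.7%), where 31.2% of the 16651 tested genes did so, and was below it for 0 members, against 30.0% of tested genes. The log2 fold change of knockout over WT was positive for 33 members, against 50.5% of tested genes. Its median over the members was 0.85, beside 0.01 over all tested genes. The log2 fold change was over 1 in 13 members, 37.1% of the list against 11.4% of tested genes, and under -1 in 0 members, against 9.27% of tested genes.

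With edgeR's quasi-likelihood test and Benjamini-Hochberg adjustment, 0 of 35 members passed an adjusted p of 0.05 as higher, against 0.00601% of tested genes (1 gene, Eif2s3y). The lowest adjusted p of a member was 0.0985, for Bst2. At an unadjusted p under 0.05, 15 members were higher (42.9%, against 12.0% of tested genes) and 0 were lower (10.9% of tested genes). DESeq2 called 10 members higher (28.6%, against 7.99% of tested genes) and 0 lower (6.28%). Those 10 were Oas1a, Oas2, Oas3, Oasl1, Oasl2, Zbp1, Trim30a, Bst2, Rtp4 and Ifitm3. The limma-voom test called 0 members and 0 genes, with 14 members at an unadjusted p under 0.05.

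**Figure D2:**
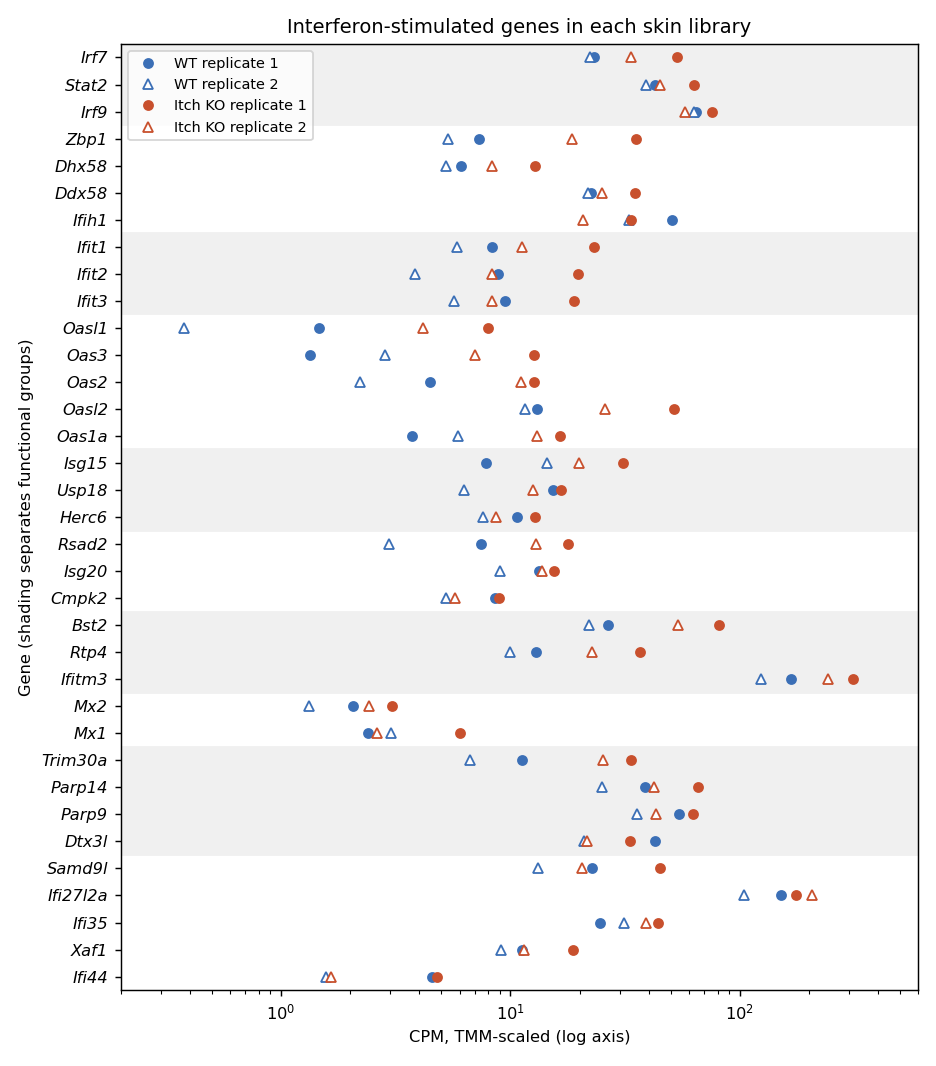
Level of each of the 35 genes in each library, in CPM on a log axis, grouped by function; circles are replicate 1 and triangles replicate 2, WT in blue and knockout in orange. For 23 genes both orange symbols lie to the right of both blue ones, and the orange circle lies to the right of the orange triangle for 34 genes.

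Of the 3 transcription factors of the response, Irf7 differed most between the groups. Irf7 (ENSMUSG00000025498, GRCm38 chromosome 7, 141262706 to 141266481, minus strand), the amplifier of the response, stood at 23.1 and 22.3 CPM in WT, against 53.0 and 33.6 CPM in the knockouts. The groups did not overlap, with a log2 fold change of 0.93 (SE 0.28, edgeR adjusted p = 0.171). Stat2 stood at 42.5 and 38.9 CPM in WT, against 63.3 and 45.0 CPM in the knockouts. Here knockout replicate 1 was high and knockout replicate 2 lay just above WT. Irf9, the DNA-binding partner of Stat2, stood at 64.1 and 63.4 CPM in WT, against 75.6 and 57.6 CPM in the knockouts, so that the groups overlapped (log2 fold change 0.06, SE 0.19). Irf9 shares 123 exonic bases with Rnf31 on the same strand, so a small part of its reads is uncertain.

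Among the nucleic acid sensors, Zbp1 was far higher in the knockouts and Ifih1 was not. Zbp1 (ENSMUSG00000027514, chromosome 2, 173206612 to 173218923, minus strand), a sensor of Z-form nucleic acid that can trigger necroptosis, stood at 7.27 and 5.37 CPM in WT, against 35.2 and 18.5 CPM in the knockouts. Both knockouts lay well above WT, with a log2 fold change of 2.09 (SE 0.42, edgeR adjusted p = 0.108, DESeq2 adjusted p = 0.000401). Ddx58, which encodes the RNA sensor RIG-I, stood at 22.4 and 21.8 CPM in WT, against 34.9 and 25.0 CPM in the knockouts. Dhx58, encoding the related LGP2, stood at 6.07 and 5.24 against 12.8 and 8.28 CPM. For both genes the groups did not overlap and knockout replicate 1 was the highest library. Ifih1 (chromosome 2, 62595798 to 62646255, minus strand), which encodes MDA5, a sensor of long double-stranded RNA, went the other way at 50.6 and 32.9 CPM in WT, against 33.4 and 20.7 CPM in the knockouts. Its groups overlapped, and its log2 fold change of -0.63 (SE 0.35, edgeR adjusted p = 0.346) was the lowest of the list.

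The OAS family had the highest median log2 fold change of the functional groups, 1.84. Where 31.2% of all tested genes had both knockouts above both WT libraries, all 5 OAS genes on the list did. These enzymes make 2′-5′-linked oligoadenylates that activate RNase L, and their genes lie on chromosome 5. Oasl1 (ENSMUSG00000041827, chromosome 5, 114923240 to 114937915, plus strand), a family member without that enzyme activity that restrains Irf7, had 22 and 6 counts in WT and 127 and 65 counts in the knockouts. In CPM the WT values were 1.47 and 0.379 and the knockout values 8.02 and 4.14, which gave a log2 fold change of 2.72 (SE 0.79, edgeR adjusted p = 0.165, DESeq2 adjusted p = 0.0215). Its WT level rests on few reads, and its SE was the widest of the list. The log2 fold change was 3.97 without WT replicate 1 and 2.05 without WT replicate 2. Oas3 stood at 1.33 and 2.84 CPM in WT, against 12.7 and 7.01 CPM in the knockouts, giving a log2 fold change of 2.23 (SE 0.56). Oas2, its neighbour 3.24 kb away, stood at 4.47 and 2.21 against 12.7 and 11.2 CPM. Although these genes adjoin, their WT libraries were ordered oppositely, Oas3 being higher in replicate 2 and Oas2 in replicate 1. Oasl2 stood at 13.0 and 11.6 CPM in WT, against 51.8 and 25.9 CPM in the knockouts, and Oas1a at 3.73 and 5.93 against 16.5 and 13.0 CPM. Oas1a has close copies in the genome, such as Oas1g, and reads shared between them make its counts uncertain. Oas1g stood at 0.867 and 1.70 against 4.61 and 3.70 CPM.

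The IFIT genes, whose proteins bind viral RNA, were high in knockout replicate 1 and closer to WT in replicate 2. Ifit1 (ENSMUSG00000034459, chromosome 19, 34640871 to 34650009, plus strand) stood at 8.33 and 5.87 CPM in WT, against 23.2 and 11.3 CPM in the knockouts, and its groups did not overlap. Ifit2 stood at 8.80 and 3.85 against 19.8 and 8.28 CPM, and Ifit3 at 9.47 and 5.68 against 19.01 and 8.28 CPM. For Ifit2 and Ifit3, knockout replicate 2 lay below WT replicate 1, so the groups overlapped. Log2 fold changes of the 3 genes were 1.28 (SE 0.46), 1.15 (SE 0.63) and 0.85 (SE 0.53). Ifit1 and Ifit3 have near copies that could share reads.

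Among the 3 members of the ISG15 pathway, the fold change was higher for the modifier Isg15 than for Usp18 and Herc6. For Usp18 this order turned without WT replicate 1, where the log2 fold change was 0.82 for Isg15 and 1.21 for Usp18. Isg15 (ENSMUSG00000035692, chromosome 4, 156199424 to 156200818, minus strand), a ubiquitin-like protein that is attached to other proteins, stood at 7.80 and 14.4 CPM in WT, against 30.9 and 19.9 CPM in the knockouts, giving a log2 fold change of 1.20 (SE 0.42, edgeR adjusted p = 0.204). It was among the 5 members in which WT replicate 2 was the higher WT library. Usp18, which removes Isg15 from proteins and blocks the receptor, stood at 15.3 and 6.25 CPM in WT, against 16.5 and 12.6 CPM in the knockouts. Herc6, the mouse ligase for Isg15, stood at 10.7 and 7.57 against 12.8 and 8.67 CPM. The groups overlapped for Usp18 and Herc6.

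Rsad2 and Cmpk2 are neighbours on chromosome 12, 12.8 kb apart and read in opposite directions, and their values parted. Rsad2 (ENSMUSG00000020641, 26442746 to 26456452, minus strand) encodes viperin, an enzyme that makes an antiviral nucleotide. It stood at 7.47 and 2.97 CPM in WT, against 17.9 and 12.9 CPM in the knockouts, giving a log2 fold change of 1.56 (SE 0.53, edgeR adjusted p = 0.199). Cmpk2, a mitochondrial nucleotide kinase, stood at 8.53 and 5.24 CPM in WT, against 8.91 and 5.73 CPM in the knockouts, giving a log2 fold change of 0.09 (SE 0.42). The ratio of Rsad2 to Cmpk2 was 0.875 and 0.566 in WT and 2.01 and 2.24 in the knockouts. This ratio did not overlap between the groups, and with 2 libraries against 2 an exact permutation test cannot give a two-sided p below 0.333. It was computed for 12 pairs of neighbouring members in all, of which 8 did not overlap, and several pairs share a gene. For the levels of single genes, 31.2% of tested genes lay above and 30.0% below without overlap. The share for ratios of other gene pairs was not computed. Isg20, an exonuclease that degrades viral RNA, stood at 13.3 and 9.03 against 15.4 and 13.8 CPM.

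Genes acting at membranes were higher in both knockouts throughout. Bst2 (ENSMUSG00000046718, chromosome 8, 71534255 to 71537456, minus strand) encodes tetherin, which holds budding virus at the cell surface. It stood at 26.6 and 22.1 CPM in WT, against 81.5 and 53.6 CPM in the knockouts, with a log2 fold change of 1.47 (SE 0.27, edgeR adjusted p = 0.0985, DESeq2 adjusted p = 0.000465). Rtp4 stood at 12.9 and 9.91 against 36.7 and 22.6 CPM. Ifitm3 (ENSMUSG00000025492, chromosome 7, 141009586 to 141010770, minus strand), which blocks viral fusion in endosomes, stood at 167 and 124 CPM in WT, against 312 and 243 CPM in the knockouts, giving a log2 fold change of 0.93 (SE 0.24, edgeR adjusted p = 0.142). All 3 lay above WT in both knockouts, against 31.2% of all tested genes, and were called higher by DESeq2, against 7.99%. Per length, Ifitm3 and Ifi27l2a were the most abundant members, at 544 to 1223 and 672 to 1183 TPM (transcripts-per-million, which also divides by transcript length) across the libraries. Together they held 32.6% to 40.5% of the members' summed CPM.

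The dynamin-like GTPases Mx1 and Mx2 were low in every library. Mx1, whose C57BL/6 allele is known to lack part of the coding sequence, stood at 2.40 and 3.03 CPM in WT, against 6.00 and 2.61 CPM in the knockouts, with overlapping groups. Mx2 stood at 2.07 and 1.33 against 3.03 and 2.42 CPM. These levels rest on 21 to 95 counts per library.

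In the group of PARP and ubiquitin ligase genes, Trim30a differed most. Trim30a (ENSMUSG00000030921, chromosome 7, 104409025 to 104465193, minus strand) stood at 11.2 and 6.69 CPM in WT, against 33.6 and 25.3 CPM in the knockouts, giving a log2 fold change of 1.72 (SE 0.35, edgeR adjusted p = 0.111, DESeq2 adjusted p = 0.000894). Parp14, a mono-ADP-ribosyltransferase, stood at 38.7 and 25.2 against 65.6 and 42.1 CPM, without overlap. Parp9 and its partner ligase gene Dtx3l overlapped between groups: Parp9 stood at 54.5 and 35.5 against 62.5 and 43.3 CPM, and Dtx3l at 42.5 and 20.8 against 33.1 and 21.6 CPM. Dtx3l was the other member with a negative log2 fold change (-0.21, SE 0.44). Parp9 and Dtx3l share 458 exonic bases on opposite strands, and the strand setting of the counting is not given in the sources used here, so reads of that stretch cannot be assigned to either.

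The 5 remaining members differed by less than a doubling. Ifi27l2a stood at 151 and 105 CPM in WT, against 176 and 205 CPM in the knockouts, and it was the only member of the 35 with knockout replicate 2 above replicate 1. Ifi35 stood at 24.7 and 31.3 against 44.1 and 39.1 CPM. Neither gene overlapped between groups. Xaf1 stood at 11.3 and 9.09 against 18.8 and 11.4 CPM, and Samd9l at 22.6 and 13.1 against 44.8 and 20.6 CPM. Ifi44 stood at 4.53 and 1.58 CPM in WT, against 4.80 and 1.66 CPM in the knockouts. Replicate 1 was about as high above replicate 2 in either genotype, and the ratio between the knockout libraries, 2.90, was the highest of the list.

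**Figure D3:**
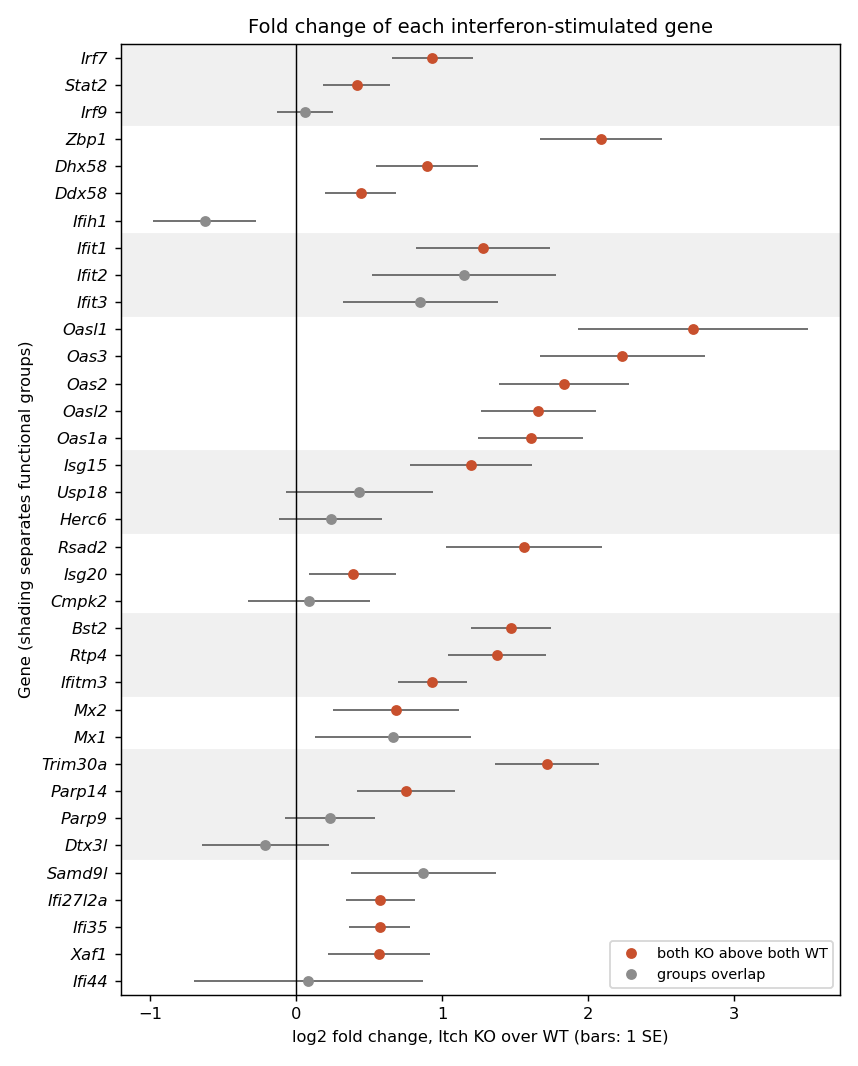
Log2 fold change of knockout over WT from edgeR for each of the 35 genes, with bars of 1 SE; orange marks genes whose groups do not overlap and grey those whose groups do. Oasl1 is highest at 2.72 and Ifih1 lowest at -0.63.

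Levels within each genotype varied in the same direction across nearly the whole list. Knockout replicate 1 exceeded knockout replicate 2 for 34 of 35 members, against 49.9% of tested genes, with a median ratio of 1.54 and a range of 0.858 to 2.90. For 6 members (Ifit1, Ifit2, Ifit3, Mx1, Samd9l and Ifi44) that ratio was over 2. WT replicate 1 exceeded WT replicate 2 for 30 members. WT replicate 2 was the higher for 5, against 45.0% of tested genes. Summed over the members, levels were 902 and 682 CPM in WT, against 1497 and 1106 CPM in the knockouts. Without knockout replicate 1 the members' median log2 fold change was 0.47, and without knockout replicate 2 it was 1.14. It was 1.03 without WT replicate 1 and 0.68 without WT replicate 2. In fits that left out a library of WT, the remaining WT library was taken to vary as the knockouts do, and edgeR called 6 members higher without replicate 1 (5.52% of tested genes) and 9 without replicate 2 (15.3%). Oas2, Oasl1, Ifitm3 and Trim30a were called in both of these fits and by DESeq2. These fits share libraries, so their calls are not independent of each other, and edgeR with all libraries called 0 of the 35 members.

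**Figure D4:**
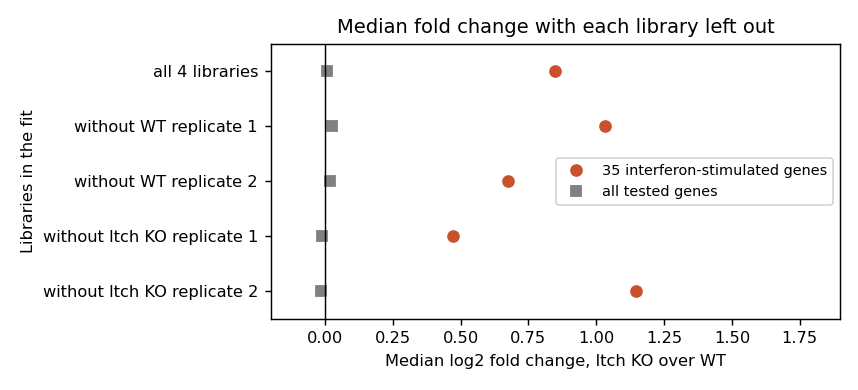
Median log2 fold change of knockout over WT for the 35 genes (orange circles) and for all tested genes (grey squares), with all 4 libraries and with each left out. The members' median runs from 0.47 to 1.14, and that of all genes stays between -0.02 and 0.03.

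Transcripts of the interferons themselves were hardly detected. Of 17 ligand genes matched, 14 had 0 counts in all 4 libraries, among them Ifnb1 and all 10 matched Ifna genes, which allows a level of up to 0.189 to 0.2 CPM per library (3 counts, counting error only). Ifng, the type II interferon gene, had 2 and 4 counts in WT and 21 and 4 counts in the knockouts. Its count was high in knockout replicate 1 alone. Ifnk, a keratinocyte interferon, had at most 2 counts in any library.

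Of the 10 receptor and relay genes, 0 passed over all genes in edgeR. At an unadjusted p under 0.05, 5 were higher (against 12.0% of all tested genes) and 1 was lower (against 10.9%). DESeq2 called 2 higher, against 7.99%. Il10rb, a receptor chain of type III interferons and interleukin-10, stood at 23.7 and 24.7 CPM in WT, against 62.9 and 53.4 CPM in the knockouts. Ifnar2 stood at 16.9 and 14.6 against 34.4 and 31.7 CPM, and Ifnar1 at 50.1 and 46.8 against 77.0 and 65.0 CPM. For these 3 receptor genes the groups did not overlap. Ifnlr1, the chain specific to type III interferons, was lower, at 41.1 and 26.3 CPM in WT, against 18.9 and 16.1 CPM in the knockouts, also without overlap (log2 fold change -0.94, SE 0.29, edgeR adjusted p = 0.178). Jak2 stood at 79.7 and 58.8 against 115 and 109 CPM.

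Among 17 genes of upstream sensing, 0 passed in edgeR, and the median log2 fold change was 0.17. At an unadjusted p under 0.05, 7 were higher (against 12.0% of all tested genes) and 0 were lower (against 10.9%). DESeq2 called 4 higher, against 7.99%. Tmem173, which encodes the DNA-sensing adaptor STING, stood at 9.53 and 9.34 CPM in WT, against 49.2 and 62.3 CPM in the knockouts, giving a log2 fold change of 2.56 (SE 0.21, edgeR adjusted p = 0.0548). Unlike most members, it was higher in knockout replicate 2. Tlr7, an endosomal RNA receptor, stood at 2.40 and 2.46 against 16.4 and 6.82 CPM. The adaptor gene Myd88 stood at 47.1 and 53.6 against 92.0 and 100.8 CPM, and Irf8, a factor of myeloid cells, at 11.5 and 8.27 against 36.6 and 24.5 CPM.

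Of 17 tested negative regulators, 0 passed in edgeR, and the median log2 fold change was 0.40. At an unadjusted p under 0.05, 4 were higher (against 12.0% of all tested genes) and 2 were lower (against 10.9%). DESeq2 called 3 higher (against 7.99%) and 1 lower (against 6.28%). Samhd1, a nucleotide hydrolase, stood at 89.7 and 89.1 CPM in WT, against 301 and 254 CPM in the knockouts. Socs3 stood at 47.1 and 32.6 against 142 and 164 CPM, and Socs1 at 6.6 and 6.25 against 16.7 and 20.1 CPM. Both Socs genes encode brakes on cytokine signalling and had knockout levels more than double those in WT. Otud1, a deubiquitinase gene, was lower at 92.1 and 46.6 against 26.8 and 28.2 CPM.

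A further 49 interferon-stimulated genes outside the list gave 0 calls in edgeR, with a median log2 fold change of 0.55. At an unadjusted p under 0.05, 18 were higher (against 12.0% of all tested genes) and 0 were lower (against 10.9%). DESeq2 called 14 higher, against 7.99%. Both knockouts lay above both WT libraries in 27 of them, against 31.2% of all tested genes, and below in 2, against 30.0%. Ifitm1, a relative of Ifitm3, stood at 3.60 and 4.48 CPM in WT, against 75.6 and 62.1 CPM in the knockouts, giving a log2 fold change of 4.09 (SE 0.24, edgeR adjusted p = 0.0529). Ms4a4c, a membrane protein gene, stood at 1.47 and 1.01 against 18.1 and 15.4 CPM. Ifi205, of the interferon-inducible p200 family, stood at 7.27 and 4.99 against 32.02 and 40.1 CPM, and Epsti1 at 4.93 and 3.79 against 25.6 and 17.1 CPM.

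Genes weighted to interferon-gamma varied more between the knockout libraries. Of 19 tested, 0 passed in edgeR, and the median log2 fold change was 0.95. At an unadjusted p under 0.05, 2 were higher, against 12.0% of all tested genes. DESeq2 called 2 higher, against 7.99%. Knockout replicate 1 was the higher knockout library for all 19, with a median log2 difference of 1.33 (computed on CPM + 1), beside 0.59 for the 35 members and -0.0007 for all tested genes. That difference between lists was not tested. Their summed level was 602 and 402 CPM in WT, against 1272 and 492 CPM in the knockouts. Ifi47, an immunity-related GTPase, stood at 11.6 and 9.41 against 68.2 and 28.3 CPM. Nos2, which encodes inducible nitric oxide synthase, was at 1.27 and 0.316 against 24.6 and 2.99 CPM, and the chemokine gene Cxcl10 at 4.07 and 6.69 against 32.0 and 8.73 CPM.

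Tested markers of myeloid cells and of leukocytes in general were higher in both knockouts, and those of NK and T cells were mixed. Of all tested genes, 31.2% had both knockouts above both WT libraries and 30.0% had both below. All 5 pan-leukocyte markers were higher in both knockouts, summing to 160 and 133 CPM in WT, against 923 and 662 CPM in the knockouts. All 12 macrophage and monocyte markers were higher as well, at 431 and 462 against 3710 and 2606 CPM. Cd163, a scavenger receptor of macrophages, had 17.9 and 12.4 CPM in WT against 214 and 216 CPM in the knockouts, and the mannose receptor gene Mrc1 at 26.3 and 38.4 against 368 and 432 CPM. Knockout replicate 1 was the higher knockout library for 10 of the 12 markers, and Cd163 and Mrc1 were the exceptions. The 7 tested neutrophil markers were also higher in both knockouts, at 36.8 and 54.3 against 2136 and 961 CPM. Summed over each of these 3 lists, knockout replicate 1 had the higher sum, as for the interferon-stimulated genes. In WT, replicate 1 had the higher sum for the members and the pan-leukocyte markers. For the macrophage and monocyte markers and the neutrophil markers, WT replicate 2 had the higher sum. Of 8 tested NK and T cell markers, 6 lay above and 1 below in both knockouts, with sums of 32.1 and 23.3 against 59.2 and 41.8 CPM. The T cell receptor gene Trac was at 1.00 and 1.07 against 5.24 and 4.33 CPM, whereas Prf1, which encodes perforin, was at 9.0 and 5.24 against 3.47 and 3.25 CPM. Fibroblast markers stood higher too, 6 of 6, at 1223 and 2243 against 8376 and 7932 CPM. Plasmacytoid dendritic cells, known as strong makers of type I interferon, are marked by Siglech. It stood at 1.13 and 0.568 CPM in WT, against 1.07 and 2.10 CPM in the knockouts, and its groups overlapped. The 2 genes of smallest p in the list of their markers, Ccr9 and Cox6a2, were lower in both knockouts. Ccr9 stood at 3.87 and 4.23 against 2.27 and 1.59 CPM, and Cox6a2 at 185 and 23.4 against 14.1 and 17.2 CPM. Over that list, 2 of 7 tested markers lay above and 2 below in both knockouts, against 31.2% and 30.0% of all tested genes. The part of cell makeup in the members' values was not tested.

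**Figure D5:**
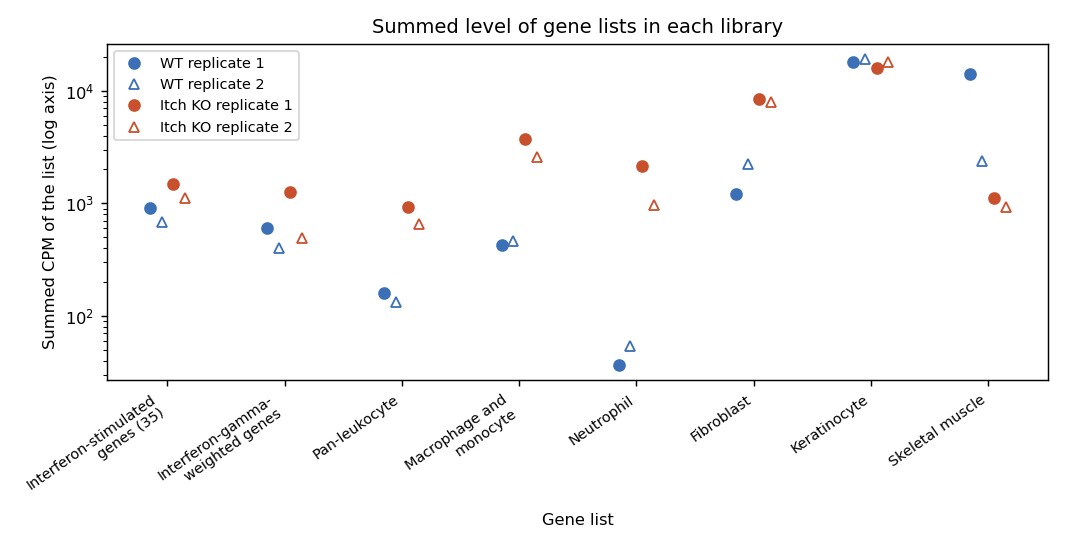
Summed CPM of each gene list in each library on a log axis; circles are replicate 1 and triangles replicate 2, WT in blue and knockout in orange. The 35 interferon-stimulated genes run from 682 to 1497 CPM, while macrophage and monocyte markers run from 431 to 3710 CPM and skeletal muscle markers are highest in WT replicate 1 at 14049 CPM.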

How the data were processed

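RNA sequencing gave 4 skin libraries, 2 WT and 2 Itch knockout, with groups and replicate numbers taken from the sample titles. The deposited values were raw read counts per Ensembl gene without normalization. The submitters' processing notes name HTSeq 0.6.1, TopHat2, CASAVA 1.8.2 and SAMtools 0.1.19 with the build mm10 (GRCm38). Not given in the sources used here are the annotation release, the strand setting and any read filter.

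The 5 special counter lines entered neither library sizes nor tests, with 5.68% to 7.45% of reads assigned to no feature and 4.48% to 4.70% ambiguous. GENCODE vM21 gave symbols, coordinates and exon lengths for 37693 of 39179 identifiers. In R 4.3.3, edgeR 4.0.16 kept 16651 genes (filterByExpr, minimum count 10), scaled by TMM and ran the two-sided quasi-likelihood F test (legacy, robust), adjusted over all tested genes at 0.05. SE was the absolute log2 fold change over the square root of F. The biological coefficient of variation was 0.341. CPM used TMM-scaled library sizes, and TPM used union exon lengths. DESeq2 1.42.0 and limma 3.58.1 (voom) were alternatives. The procedure was tested on simulated counts.

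The members and lists were chosen with earlier results of these data known. All 35 members were named, with up to 4 genes of smallest p from each pathway list and up to 2 from each cell type marker list. Oas1g, Siglech, Ifng, Ifnk, Ifnlr1 and Prf1 were named outside that rule, after their values were seen. Of 216 list symbols, 7 had no match.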

Additional observations from a re-analysis of the deposited data

How the results depend on the processing

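The members' direction as a list held in every fit tried, with a median log2 fold change of 0.47 to 1.14, but its calls did not hold across tools. With 0 members and 1 gene called by edgeR, DESeq2 called 10 members, 2329 genes and 26 genes of the pathway lists. Limma-voom called 0 genes. Without a filter on low counts edgeR called 488 genes, 9 of them in pathway lists, and 0 members. Leaving out 1 library gave 0 to 5320 genes, 0 to 9 members and 0 to 29 genes of the pathway lists, the calls coming from fits without a WT library. RLE or upper-quartile scaling gave 1 gene and 0 members, and the fold changes kept their sign for all 35 members. Leaving out genes on X and Y, a fit chosen after seeing the data, gave 0 genes. The replicate numbers have no stated meaning. Deviations of same-numbered libraries from their group means correlated at 0.186 across genes. With the replicate number as a block, edgeR called 0 genes and 0 members, with 17 members at an unadjusted p under 0.05 against 15 without it, and the members' median was 0.78.

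Over fits that left out 1 library, 8 members changed sign: Dtx3l ran from -0.63 to 0.39, Usp18 from -0.071 to 1.21, Ifi44 from -0.88 to 1.03, Cmpk2 from -0.27 to 0.48, Parp9 from -0.0606 to 0.57, Mx1 from -0.0653 to 1.14, Irf9 from -0.15 to 0.25 and Herc6 from -0.0783 to 0.50 (log2 fold change). The cause was not tested. Among the lowest counts behind a member's value were 6 for Oasl1 in WT replicate 2, 20 for Oas3 in WT replicate 1 and 21 for Mx2 in WT replicate 2.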
